A study of Homo sapiens with 20 samples.

Results

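The small RNA of HCT116 cells without DROSHA was compared with that of untreated wild-type HCT116 cells, using the 1 knockout library and the 1 untreated wild-type library that the sample titles name, 2 of 20 libraries in the series. HCT116 is a human colon cancer line. The knockout cells expressed GFP, the green fluorescent protein, and carried no DROSHA transgene that the labels name. The wild-type cells had no treatment. The labels do not say how the knockout was made, whether its cells were 1 clone, or how GFP was introduced, and the wild-type library had no GFP, so GFP and the knockout cannot be told apart. Other libraries of the series came from HCT116 DROSHA knockout cells rescued with full-length DROSHA or its shorter form p140 (3 libraries each). The labels do not say whether these were the same clone as the knockout with GFP, so clone and transgene cannot be told apart. DROSHA knockout HEK293E cells, a line of embryonic kidney origin, had the same transgenes (3 each). Wild-type HCT116 cells were grown in 9.1% or 0.1% FBS (fetal bovine serum) over 72 hr (3 each). All these libraries are used below only to place the values of the knockout and the untreated wild type. With 1 library on each side there was no replicate check and no test. Intervals are exact 95% intervals and cover counting error only.

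MicroRNAs (miRNAs) are short RNAs that guide Argonaute proteins to messenger RNAs, mainly through pairing of the seed near the 5′ end. Most are made from hairpins in long primary transcripts: DROSHA, with its partner DGCR8, cuts the hairpin out in the nucleus, and DICER then cuts it in the cytoplasm. Some hairpins need no DROSHA cut. A mirtron is a short intron that splicing releases and that folds into a hairpin after debranching, and some hairpins lie at the very start of a transcript and carry its cap.

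The mature sequences of the miRNAs that stayed high without DROSHA are given first, because their members differ in origin and only the miR-320 relatives share a seed. Sequences are those of RefSeq on GRCh38.p14, read 5′ to 3′, with the seed (bases 2 to 8) in capitals. The first 4 come from short introns, the next 3 from hairpins close to a transcript start, then 3 relatives of miR-320a and 2 others.
miR-1229-3p: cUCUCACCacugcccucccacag
miR-1226-3p: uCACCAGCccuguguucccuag
miR-877-3p: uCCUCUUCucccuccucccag
miR-877-5p: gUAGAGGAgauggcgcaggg
miR-7706: uGAAGCGCcugugcucugccgaga
miR-484: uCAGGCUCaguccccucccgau
miR-3615: uCUCUCGGcuccucgcggcuc
miR-320b: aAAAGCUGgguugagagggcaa
miR-320c: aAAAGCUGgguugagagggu
miR-320d: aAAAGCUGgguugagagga
miR-1260b: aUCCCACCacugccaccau
miR-4521: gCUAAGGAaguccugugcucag
The seed AAAGCUG was the same in miR-320b, miR-320c and miR-320d, whose sequences differ mainly at the 3′ end. The other 9 seeds occurred once each in this set. Those of miR-877-3p and miR-877-5p differ although both come from 1 hairpin.

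The 3 intron hairpins behind the first 4 miRNAs are shown whole because their ends carry the splice sites. Each hairpin begins and ends exactly where an annotated intron does, with the GU that opens and the AG that closes an intron in capitals here.
miR-877 hairpin: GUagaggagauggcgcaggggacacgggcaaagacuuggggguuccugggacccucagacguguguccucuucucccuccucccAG
miR-1226 hairpin: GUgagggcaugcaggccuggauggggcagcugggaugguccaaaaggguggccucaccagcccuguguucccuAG
miR-1229 hairpin: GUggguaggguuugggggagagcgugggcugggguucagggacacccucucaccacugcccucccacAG
The miR-877 hairpin lies in ABCF1 (chr6:30584332-30584417, plus strand, an intron of 86 bases), that of miR-1226 in DHX30 (chr3:47849555-47849629, plus strand, 75 bases) and that of miR-1229 in MGAT4B (chr5:179798278-179798346, minus strand, 69 bases). Of the 27 hairpins with both ends at splice sites and a RefSeq sequence, 23 (85.2%) began with GU and ended with AG, against 36 of all 1469 hairpins with a sequence (2.45%).

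For comparison, the most abundant wild-type miRNAs and the miR-200 family, an epithelial family that restrains ZEB1 and ZEB2, are shown because the loss is described on them.
miR-21-5p: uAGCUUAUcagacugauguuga
miR-222-3p: aGCUACAUcuggcuacugggu
miR-221-3p: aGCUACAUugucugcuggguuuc
let-7a-5p: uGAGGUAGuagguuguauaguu
miR-29a-3p: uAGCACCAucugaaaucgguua
miR-31-5p: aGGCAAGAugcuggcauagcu
miR-200c-3p: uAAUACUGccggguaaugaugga
miR-200b-3p: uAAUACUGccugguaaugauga
miR-429: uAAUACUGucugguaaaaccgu
miR-141-3p: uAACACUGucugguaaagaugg
miR-200a-3p: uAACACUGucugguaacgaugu
The seed GCUACAU is shared by miR-221-3p and miR-222-3p. The miR-200 family has a pair of seeds, AAUACUG in miR-200c-3p, miR-200b-3p and miR-429, and AACACUG in miR-141-3p and miR-200a-3p.

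After counting each mature miRNA once, the wild-type library held 856658 reads and the knockout library 38288, the smallest of the series, whose libraries reached 2822317. Levels are in CPM, each count divided by its library's total and brought to the same fixed sum. A single read stood for 1.17 CPM in wild type and 26.1 CPM in the knockout. The limit that a count of 0 allows, 3 reads, was 3.50 CPM in wild type and 78.4 CPM in the knockout. Of 2588 mature names, 867 had a read in wild type and 595 in the knockout. The counts hold no mRNA, so DROSHA itself was not measured. The knockout library stood apart from the libraries of rescued HCT116 knockout cells in one respect described further on. Its remaining reads of DROSHA-cut miRNAs, miR-200 among them, had the profile of the untreated wild type. Of the colon epithelial markers, the miR-200 members were abundant in wild type and present in the knockout, while miR-192-5p had 36 and 0 reads and miR-215-5p 2 and 0, so these intestinal miRNAs were near 0 in both. The intestinal miR-194-5p had 122 reads in wild type (142 CPM) and 2 in the knockout. Markers of blood cells (11 names) had 59 reads in wild type and 0 in the knockout, which allows a share of up to 0.00784%. The miR-218 arms, abundant in the HEK293E libraries, had 29 reads in wild type and 1 in the knockout.

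A total of 194 miRNAs reached 100 reads in either library, of which 13 were over 2-fold higher in CPM in the knockout and 173 over 2-fold lower. These are 6.7% and 89.2% of the miRNAs compared. The 13 were miR-1229-3p, miR-1226-3p, miR-877-3p, miR-877-5p, miR-7706, miR-484, miR-3615, miR-320a, miR-320b, miR-320c, miR-320d, miR-1260b and miR-4521. Among the 13, miR-877-3p, miR-1226-3p, miR-1229-3p, miR-7706 and miR-320d reached 100 reads only in the knockout. A read there stands for 26.1 CPM against 1.17 CPM in wild type, so any miRNA that passes in this way is higher, and the direction of these 5 is no result. When wild type itself had to reach 100 reads, 8 of 189 miRNAs (4.23%) were over 2-fold higher. Of the 194, the 8 that were neither higher nor lower by 2-fold had 0 reads in the knockout and too few in wild type for a bound of 2-fold. No miRNA lay between: the lowest of the 13 was 40.4-fold higher, and no other measured ratio was above 1. The counting interval lay wholly above 1 for all 13, and wholly below 1 for 161 of the 194 (83%).

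**Figure D1:**
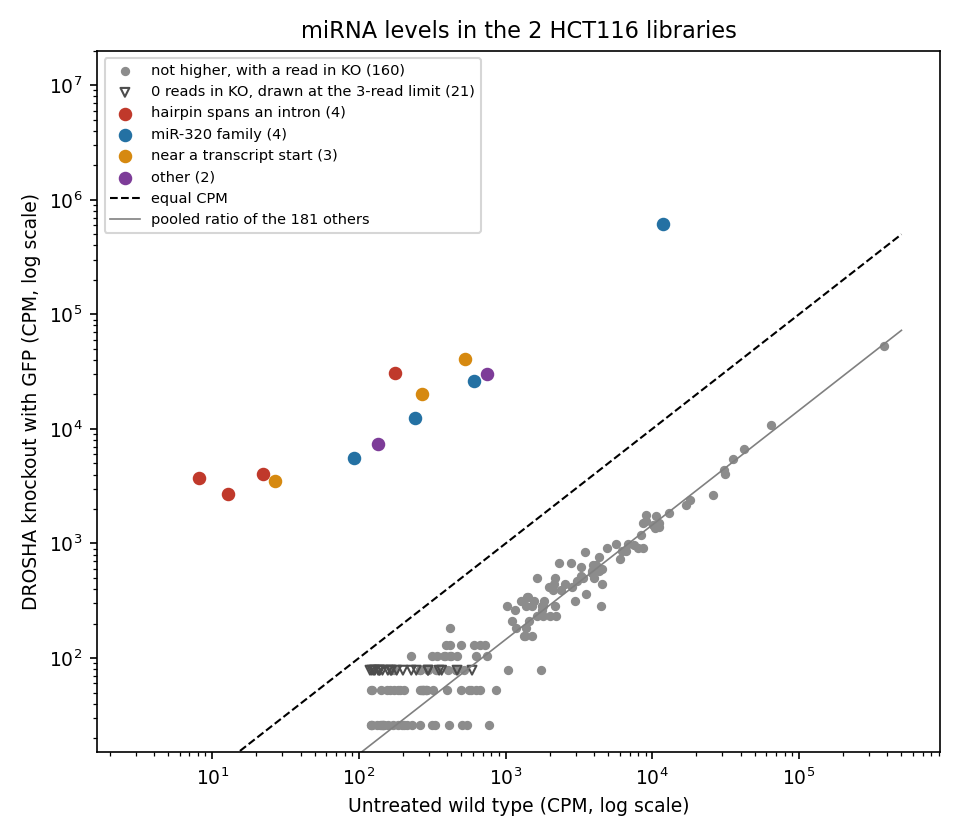
Each point is 1 of the 194 miRNAs that reached 100 reads in either library, by its CPM in untreated wild type (horizontal, log scale) and in the knockout with GFP (vertical, log scale); triangles are the 21 miRNAs at 0 reads in the knockout, drawn at the limit of 3 reads (78.4 CPM). The 13 coloured miRNAs sit above the dashed line of equal CPM, and the others lie along the grey line of their pooled ratio, 6.89-fold below it.

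The 13 miRNAs took 1.48% of the reads in wild type (interval 1.45 to 1.5) and 79.8% in the knockout (79.4 to 80.2). Without miR-320a the other 12 took 0.287% (0.276 to 0.299) and 18.7% (18.3 to 19.1). The 181 other miRNAs went from 97.6% of the reads to 14.2%, and the 2394 names under 100 reads in both libraries from 0.876% to 6.0%. The 10 most abundant miRNAs of wild type together held 65.8% of its reads and 9.35% of the knockout's. CPM gives a share of each library, so a miRNA whose amount stayed level rises in CPM when the rest is lost. No spike-in counts were used here, so the amount per cell was not measured.

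The mirtron arms among the 13 are described first. Of these 4, only miR-877-5p reached 100 reads in wild type; the other 3 passed the minimum through the knockout alone, so that they were higher is no result. The miR-877-5p arm had 150 reads in wild type (175 CPM) and 1174 in the knockout (30662 CPM), a ratio of 175-fold (148 to 209). Its partner miR-877-3p had 19 and 155 reads, 183-fold (113 to 311). From the DHX30 intron, miR-1226-3p had 11 and 103 reads, 210-fold (112 to 433). From the MGAT4B intron, miR-1229-3p had 7 and 143 reads, 457-fold (216 to 1157). The intervals of miR-1226-3p and miR-877-3p overlap those of the other mirtron arms, while those of miR-877-5p and miR-1229-3p do not overlap each other. Against untreated wild type, all 4 lie above the intervals of miR-320a, miR-320b, miR-320c, miR-320d, miR-484, miR-3615, miR-1260b and miR-4521. That of miR-7706 overlaps those of miR-877-5p, miR-877-3p and miR-1226-3p. For the 3 arms that passed through the knockout alone, this order is no result. For miR-877-5p it rests on the wild-type library used. The arm was at 175 CPM untreated and 573, 487 and 334 CPM in 9.1% FBS. miR-320a was at 11889 CPM untreated and 9409, 7692 and 6713 CPM in 9.1% FBS.

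For miR-877 the shares of both arms had overlapping intervals in the 2 libraries. The minor arm miR-877-3p made up 11.2% of miR-877 reads in wild type (6.91 to 17.0) and 11.7% in the knockout (9.99 to 13.5), which overlap. For miR-1226 the minor arm, miR-1226-5p, had 0 of 11 reads in wild type, which leaves shares up to 28.5%, and 22 reads beside 103 of the major arm in the knockout, or 17.6% (11.4 to 25.4). For miR-1229 the minor arm, miR-1229-5p, had 0 reads beside 7 in wild type and 3 beside 143 in the knockout. Other mirtrons were seen mainly in the knockout. The LRP1 mirtron arm miR-1228-3p had 0 reads in wild type and 52 in the knockout. With wild type set at its limit of 3 reads it was 388-fold higher, and miR-1226-5p was 164-fold higher. Their exact intervals begin at 304-fold and 123-fold. The ARF1 mirtron arm miR-3620-3p had 4 and 26 reads, and the VWA5B2 mirtron arm miR-1224-5p 10 and 34. Its partner miR-1224-3p had 5 reads in wild type and 3 in the knockout. Over the mirtron list of 21 arms, 9 had a read in wild type and 17 in the knockout, and the summed reads went from 208 to 1740, or from 0.0243% to 4.54% of the library, 187-fold (162 to 217). Most of these reads were of miR-877, so the summed fold is mainly that of this hairpin.

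The miR-320 family, which pairs through the AAAGCUG seed, took the largest share of the knockout. miR-320a, whose capped hairpin is known to be exported without a DROSHA cut, had 10185 reads in wild type and 23416 in the knockout, or 1.19% and 61.2% of the library. That made it 51.4-fold higher (50.3 to 52.7). miR-320b had 526 and 996 reads, 42.4-fold higher (38.1 to 47.2). miR-320c had 206 and 481 reads, 52.2-fold (44.3 to 61.8), and miR-320d 79 and 214, 60.6-fold (46.6 to 79.5).
Within the family the make-up moved little: miR-320a was 92.6% of miR-320 reads in wild type (92.1 to 93.1) and 93.1% in the knockout (92.8 to 93.5), and miR-320b 4.78% (4.39 to 5.2) and 3.96% (3.72 to 4.21). The miR-320b intervals do not overlap and those of miR-320a, miR-320c and miR-320d do. The members are near-identical in sequence, and the rule for reads that fit several of them is not given in the sources used here, so reads of miR-320a may be counted under its relatives. In GENCODE 29 the miR-320b copy used here lies in an NVL intron (chr1:224257049-224257070, minus strand), far from its splice sites, and miR-320c (chr18:24321716-24321735, plus) and miR-320d (chr13:40727828-40727846, minus) lie between genes.

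A further 3 kept miRNAs come from hairpins close to an annotated transcript start. The hairpin of miR-484, a known capped and terminal hairpin, starts 27 bases into NDE1, with the mature arm at chr16:15643301-15643322 on the plus strand. It had 451 reads in wild type (526 CPM) and 1546 in the knockout (40378 CPM), 76.7-fold higher (69.0 to 85.4). The miR-7706 hairpin starts 9 bases into an AKAP13 transcript (chr15:85380639-85380662, plus, exonic). It had 23 and 135 reads, 131-fold higher (84.0 to 214). The miR-3615 hairpin begins at position -39 from a start of SLC9A3R1 and reaches into its exon (chr17:74748663-74748683, plus). It had 232 and 765 reads, 73.8-fold higher (63.6 to 85.8). The intervals of miR-484 and miR-3615 overlap.

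The last pair of kept miRNAs lies outside annotated protein-coding hosts. miR-1260b (chr11:96341447-96341465, plus) had 116 and 281 reads, 54.2-fold higher (43.5 to 67.9). miR-4521 (chr17:8186948-8186969, plus) had 642 and 1158 reads, 40.4-fold higher (36.6 to 44.5), and begins 1 base after the end of the tRNA gene TRS-GCT4-3 (chr17:8186866-8186947). The strand of that tRNA gene is not in the table used, and whether these reads are tRNA trailers, pieces cut from the 3′ end of a tRNA transcript, was not tested.

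**Figure D2:**
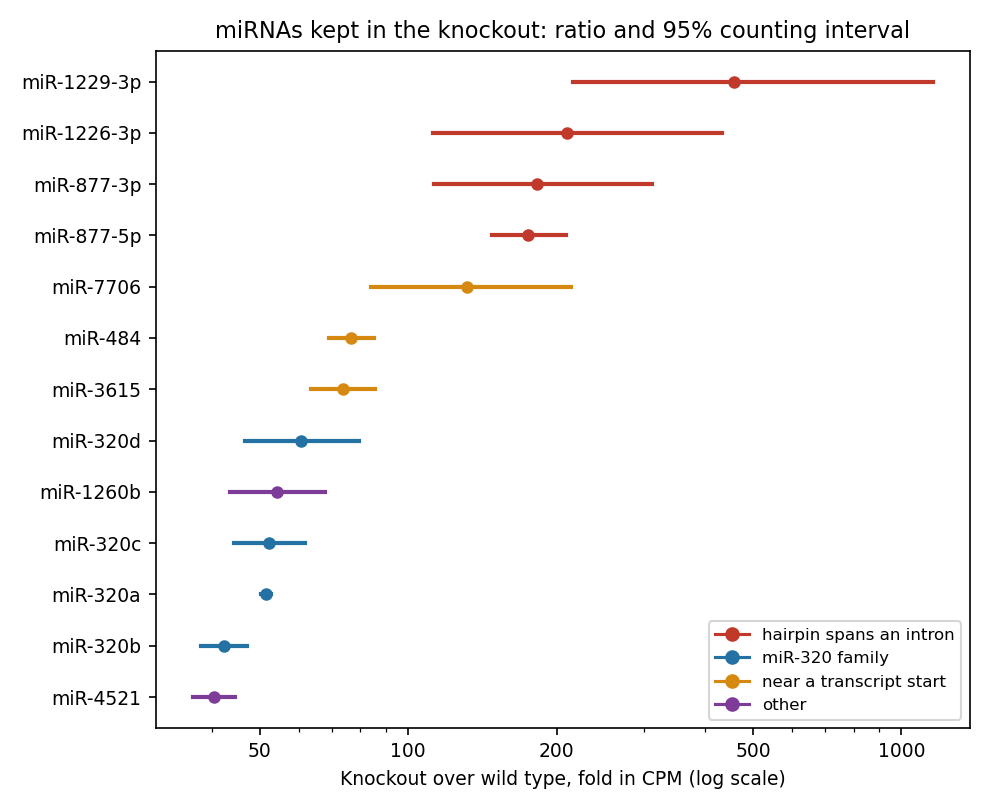
Points are the CPM ratios of knockout to wild type for the 13 kept miRNAs and bars their exact 95% counting intervals, on a log axis, coloured by the position of the hairpin (miR-7706, miR-484 and miR-3615 as near a transcript start). The 4 intron-derived arms lie highest, from 175-fold to 457-fold, and miR-4521 lowest, at 40.4-fold. However, miR-877-3p, miR-1226-3p, miR-1229-3p, miR-7706 and miR-320d reached 100 reads only in the knockout, so their place in this order is no result. The place of miR-877-5p rests on the wild-type library used.

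The annotation of the hairpins was set against the ratios in a set of miRNAs chosen without either library, the 596 with a mean of at least 5 CPM in the 9.1% FBS libraries. Of these, 73 (12.2%) had an interval wholly above 1 and 166 (27.9%) one wholly below 1, with the rest undecided at this depth. A few knockout reads can put an interval above 1, while one below needs many wild-type reads. The counts are therefore one-sided where wild-type reads are few. Where both hairpin ends lay within 5 bases of the ends of an intron, 9 of 9 miRNAs were above, and their pooled reads went from 207 to 1679, 181-fold higher (157 to 211). Most of these reads were of 1 hairpin: miR-877-5p gave 150 and 1174 of them and miR-877-3p 19 and 155. The pooled fold is thus mainly that of miR-877. Where only 1 end lay at a splice site, 21 of 28 were above and 0 below, with 179 and 432 reads, 54.0-fold higher (45.3 to 64.6). These had too few wild-type reads each for an interval wholly below 1, so the 0 below is no result. Where the hairpin started within 20 bases of a transcript start, 5 of 13 were above and 1 below. This class holds miR-7706 but not miR-484 or miR-3615, whose hairpins start further from the transcript start. miR-320a is counted as intergenic. By position alone, 34 of 374 intronic (9.09%), 12 of 66 exonic (18.2%) and 15 of 92 intergenic miRNAs (16.3%) were above. The median GC content of the mature sequence was 60.5% over 12 of the 13 kept miRNAs with a sequence and 45.5% over 157 of the 181 others. Median lengths were 21.5 and 22 bases. Of the 13, 5 passed the minimum of reads through the knockout alone. The set also counts both arms of miR-877 and 3 near-identical miR-320 relatives separately. The GC values thus describe these names, and no trait of kept miRNAs in general is read from them.

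A further 59 names had 10 to 99 reads in the knockout and under 100 in wild type. They took 1494 reads (3.90%) of the knockout and 446 (0.0521%) of wild type. This choice of counts makes them higher in CPM, so the direction is no result. Their positions are a description of names chosen through the knockout. Of the 59, 13 had both hairpin ends at splice sites, 17 had 1 end there, 3 started near a transcript start and 2 lay in small nucleolar RNAs. Of all 1881 hairpins annotated, 29 had both ends at splice sites, 223 had 1 end there and 31 started near a transcript start; these count hairpins, not names. The most read were miR-7974, with 7 reads in wild type and 91 in the knockout, and miR-6886-5p, with 3 and 66. miR-636, whose hairpin starts 7 bases into an SRSF2 transcript, had 4 and 54 reads. Outside the naming rule, these 3 were chosen after their values were seen.

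The abundant miRNAs of HCT116 cells fell together. miR-21-5p, an oncogenic miRNA, had 324564 reads in wild type (378872 CPM) and 2026 in the knockout (52915 CPM), 7.16-fold lower (6.85 to 7.48). miR-222-3p, which represses the cell cycle inhibitor p27, had 55548 and 416 reads, 5.97-fold lower (5.42 to 6.59). Its neighbour miR-221-3p had 36419 and 256 reads, 6.36-fold lower (5.62 to 7.22). let-7a-5p, of the family that represses RAS and HMGA2, had 30565 and 209 reads, 6.54-fold lower (5.70 to 7.53). miR-29a-3p, which targets collagen mRNAs, had 27047 and 156 reads, 7.75-fold lower (6.62 to 9.13), and miR-31-5p 26338 and 169, 6.97-fold lower (5.99 to 8.15). Apart from miR-222-3p against miR-21-5p and miR-29a-3p, these intervals overlap.

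Pooled over families, most falls lay close to one another. The counts of members lower are near the 89.2% of all 194 miRNAs called lower, and nothing is read from them. The let-7 and miR-98 family had 12 of 12 compared members lower, with 79478 reads in wild type and 528 in the knockout, 6.73-fold lower (6.18 to 7.34). All 7 compared members of the proliferation-linked miR-17/92 cluster were lower, 6.23 to 8.20 around a pooled 7.13-fold, and all 5 of the related miR-106b/25 cluster, 7.09-fold (5.95 to 8.53). The miR-29 and miR-30 families (10 of 10) were 7.41-fold lower (6.58 to 8.38), the miR-23/27/24 clusters (6 of 7, with miR-27a-5p at 0 reads) 7.41-fold (6.35 to 8.71), and the miR-15/16 family (7 of 7) 6.03-fold (4.85 to 7.60). The miR-26 and miR-103/107 families (4 of 4) were 6.08-fold lower (5.21 to 7.14), miR-221 and miR-222 (4 of 4) 6.09-fold (5.65 to 6.58) and the miR-183/96/182 cluster (3 of 3) 5.75-fold (4.22 to 8.06). Among the lists with smaller folds, the miRNAs of the HOX loci (4 of 4) were 4.75-fold lower (3.67 to 6.27) and the miR-181 family (4 of 4) 5.25-fold (3.96 to 7.10). miR-34a-5p, a target of p53, had 1991 and 26 reads and was 3.42-fold lower (2.33 to 5.25). The miR-200 family was at the other end, 9.66-fold lower (8.38 to 11.2), with 6 of 8 compared members called and miR-141-5p and miR-200a-5p at 0 reads. The cluster in CLCN5 introns had 1123 and 3 reads over 16 names, 16.7-fold lower (5.71 to 81.3), an interval too wide to set it apart. With 0 reads set to 3, the median log2 ratio was -2.77 for let-7, -2.81 for miR-17/92, -2.80 for miR-29 and miR-30 and -3.14 for miR-200, against -2.46 across all 194 miRNAs.

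Single miRNAs with few reads in the knockout are only loosely placed. The lowest ratio was that of the HOX-locus miR-196a-5p, with 665 reads in wild type and 1 in the knockout, 29.7-fold lower (5.32 to 1176). miR-9-5p, a neural miRNA, had 1491 and 3 reads, 22.2-fold lower (7.59 to 108). The hypoxia-induced miR-210-3p had 540 and 2 reads, 12.1-fold lower (3.32 to 99.9). Of the 194, 21 had 0 reads in the knockout and 50 had 1 or 2. Those at 0 include miR-660-5p with 302 reads in wild type and miR-27a-5p with 116. With the knockout set at its limit of 3 reads these were 4.50-fold and 1.73-fold lower. Their exact intervals begin at 3.64-fold and 1.38-fold lower.

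The 181 miRNAs outside the kept set lay near a single ratio, as far as their counts can show. Their reads summed to 836507 in wild type and 5424 in the knockout, or 154 wild-type reads for each knockout read, a pooled fall of 6.89-fold in CPM (6.71 to 7.08). This fall, and each level of a lost miRNA in the knockout, is that of the reads as counted: miRNA left in the knockout cells and reads carried over from another library cannot be told apart here. The intervals of 171 (94.5%) held this pooled ratio. That share is partly set by depth, since 21 of the 194 had 0 knockout reads and 50 had 1 or 2. Such wide intervals can hardly lie below the pooled ratio. Chi-square over its degrees of freedom, knockout against untreated wild-type counts, was 1.42 over the 181. It was 1.87 over the 78 with at least 1000 wild-type reads, more than counting error alone gives. The intervals of 3 lay below the pooled ratio: miR-200b-3p (11 reads where 24.8 would match it), miR-200c-3p (102 against 144) and miR-9-5p (3 against 9.67). Another 7 lay above, namely miR-222-3p (416 against 360), miR-103a-3p (68 against 50.4), miR-10a-5p (32 against 19.3), miR-21-3p (26 against 15.4), miR-34a-5p (26 against 12.9), miR-1307-3p (19 against 9.07) and miR-130b-3p (7 against 2.31). Position made little difference among the 181, with pooled falls of 6.71-fold for intronic (6.44 to 7.01), 7.04-fold for exonic (6.77 to 7.33) and 7.87-fold for intergenic hairpins (6.69 to 9.32).

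**Figure D3:**
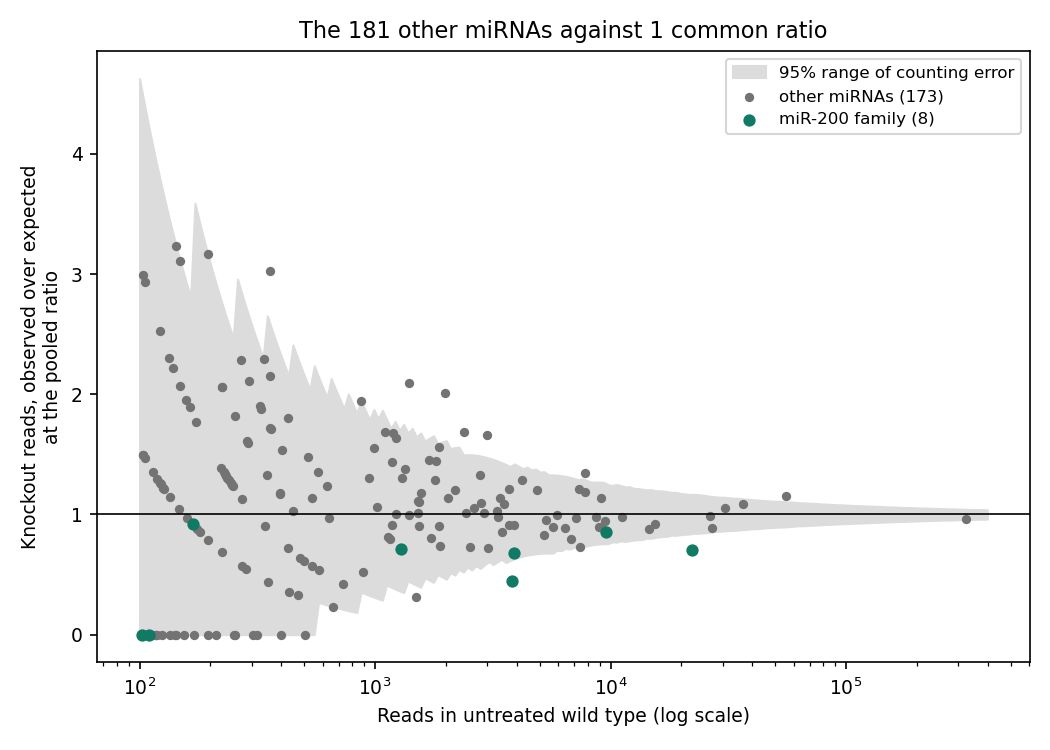
For each of the 181 miRNAs not higher in the knockout, the vertical axis gives its knockout reads over those that the pooled ratio (154 wild-type reads per knockout read) would give, against its wild-type reads (log scale); the grey band is the 95% range of counting error. Most points lie in the band, and the 8 miR-200 family arms lie below the line of 1.

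As a yardstick, the untreated wild type was set against the wild-type libraries in 9.1% FBS. Over 189 miRNAs the median absolute log2 ratio between them was 0.63, the 95th percentile 1.72 and the largest 2.54, for miR-149-5p. The lowest log2 ratio of the kept miRNAs (5.33) lay above this spread, and the median of the 181 others (-2.51) lay beyond its 95th percentile but within its largest value. All 13 kept miRNAs were higher in the knockout than in each of these 4 wild-type libraries, and all 181 others were lower than in each, those at 0 reads included. The untreated library was itself used to choose both sets, so only the libraries in 9.1% FBS add to this. Of the 13, 5 passed the minimum of reads through the knockout alone.

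The reads of the 181 that were left in the knockout followed the profile of the untreated wild-type library more closely than that of any other library. The 78 miRNAs with at least 1000 wild-type reads have 5206 reads in the knockout. Over these, correlations were taken on log2 read counts, with a single read added to each count. Pearson's r with untreated wild type was 0.964 and Spearman's rho 0.930. With the 9.1% FBS libraries r was 0.873 to 0.88, and with 0.1% FBS 0.895 to 0.911. With the knockout cells rescued by full-length DROSHA r was 0.649 to 0.696, with p140 0.660 to 0.702, and with the HEK293E libraries 0.272 to 0.318. Chi-square divided by its degrees of freedom, for the knockout's counts against another profile, was 1.87 for untreated wild type, 19.1 to 28.9 for the serum libraries and 140 to 152 for full-length DROSHA. These are descriptions across miRNAs within libraries, and the first set was chosen on wild-type reads. Over 83 miRNAs with a mean of at least 1000 CPM in the 12 other HCT116 libraries, a choice made after the data were seen, r was 0.969 with untreated wild type and 0.621 to 0.680 with full-length DROSHA.

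The miR-200 family shows this most plainly. miR-200c-3p was at 25988 CPM in untreated wild type and 2664 CPM in the knockout with GFP (102 reads). In HCT116 knockout cells rescued with full-length DROSHA it was at 197, 192 and 152 CPM, and with p140 at 101, 101 and 79.5 CPM. The labels do not say whether the rescued cells and those with GFP were the same clone. In CPM the knockout without a DROSHA transgene thus lay above each of the 6 rescued HCT116 libraries and below each wild-type library. This is an order of shares. The kept miR-320a was at 611575 CPM in the knockout with GFP and 42885, 39348 and 21960 CPM with full-length DROSHA. Which cells held more miR-200c-3p was not measured. miR-141-3p, its neighbour in the same host gene MIR200CHG, was at 11167 CPM in wild type, 1384 CPM in the knockout (53 reads) and 63.1, 79.0 and 81.2 CPM with full-length DROSHA. In contrast miR-21-5p was at 378872 CPM in wild type, 52915 CPM in the knockout and 348057, 367338 and 366118 CPM with full-length DROSHA.

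Among miRNAs outside the kept set with at least 300 wild-type reads, 9 were under 1/8 of their wild-type CPM in the full-length rescue and 106 were not. Wild type and the rescue divided them, but the kept set left out beforehand was defined with the knockout with GFP. The 9 were miR-200c-3p, miR-141-3p, miR-200a-3p, miR-200b-3p, miR-429, miR-9-5p, miR-9-3p, miR-135b-5p and miR-375. Together they had 44187 reads in wild type and 204 in the knockout with GFP, or 51581 and 5328 CPM, 9.68-fold lower (8.44 to 11.2), against a mean of 615 CPM with full-length DROSHA. The 106 others were 6.8-fold lower in the knockout (6.62 to 6.99) and at 133958 CPM there, against 911297 CPM in wild type and 912522 CPM with full-length DROSHA. Whether the knockout's reads of these miRNAs were made in the knockout cells or came over from another library was not tested.

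**Figure D4:**
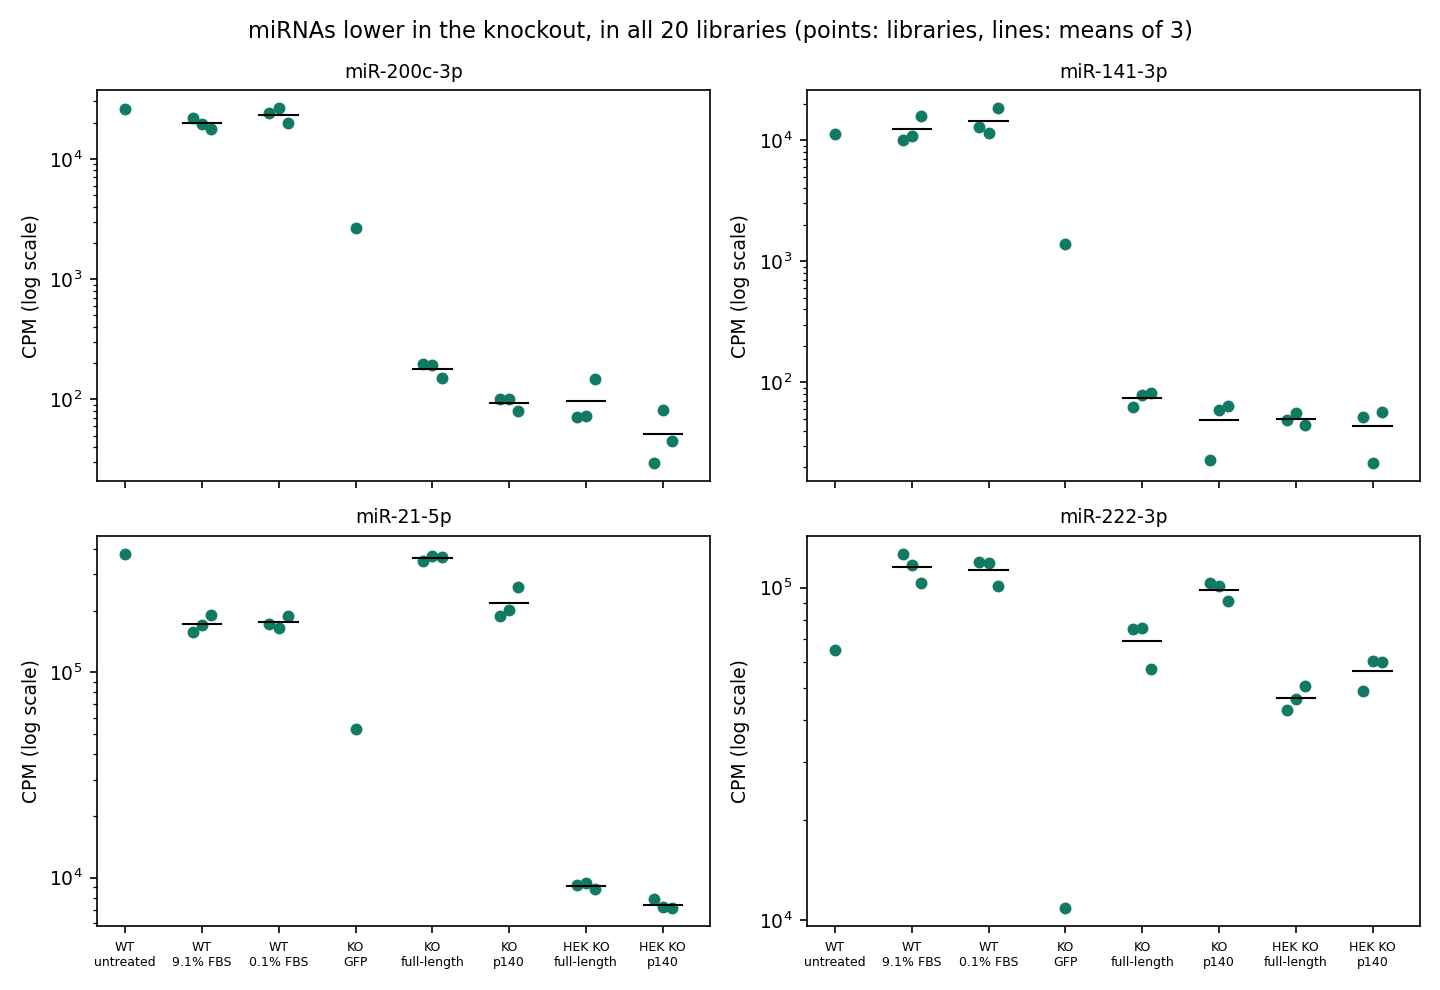
CPM (log scale) of 4 miRNAs in all 20 libraries by group, with points for libraries and lines for means of 3. As shares of reads, miR-200c-3p and miR-141-3p fall from wild type to the knockout with GFP and are lower again in the rescued knockouts. miR-21-5p and miR-222-3p are lowest among the HCT116 libraries in the knockout with GFP.

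The kept miRNAs were followed through the other conditions. Their joint share of reads was 79.8% in the knockout with GFP, against 5.74%, 5.29% and 3.25% with full-length DROSHA (4.76 ± 1.32, SD, n = 3) and 24.1%, 22% and 8.32% with p140 (18.1 ± 8.58, SD, n = 3). In wild type it was 1.48% untreated, 1.32 ± 0.23% in 9.1% FBS and 1.41 ± 0.29% in 0.1% FBS (SD, n = 3 each). The rescued HCT116 knockouts therefore lay between the wild-type libraries and the knockout with GFP, without overlap. However, the 13 were chosen as higher in the knockout with GFP, and 5 passed the minimum of reads through it alone. Their share and rank there are in part set by that choice. The 23 arms of the mirtron and terminal hairpin lists, chosen with earlier results of these data known, took 69.7% with GFP. They took 2.74% to 4.98% with full-length DROSHA, 7.05% to 21.0% with p140 and 1.27% in untreated wild type. Of the 13, 11 were higher in the knockout with GFP than in all 19 other libraries. The exceptions were miR-4521, at 30244 CPM against 45179 in 1 HEK293E library with p140, and miR-1260b, at 7339 CPM against up to 10919 CPM in HEK293E libraries. miR-320a was at 611575 CPM with GFP, 42885, 39348 and 21960 CPM with full-length DROSHA, and 181479, 162970 and 56619 CPM with p140. miR-877-5p was at 30662 CPM with GFP, 2240, 1504 and 1039 CPM with full-length DROSHA, and 9302, 8671 and 2951 CPM with p140.

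**Figure D5:**
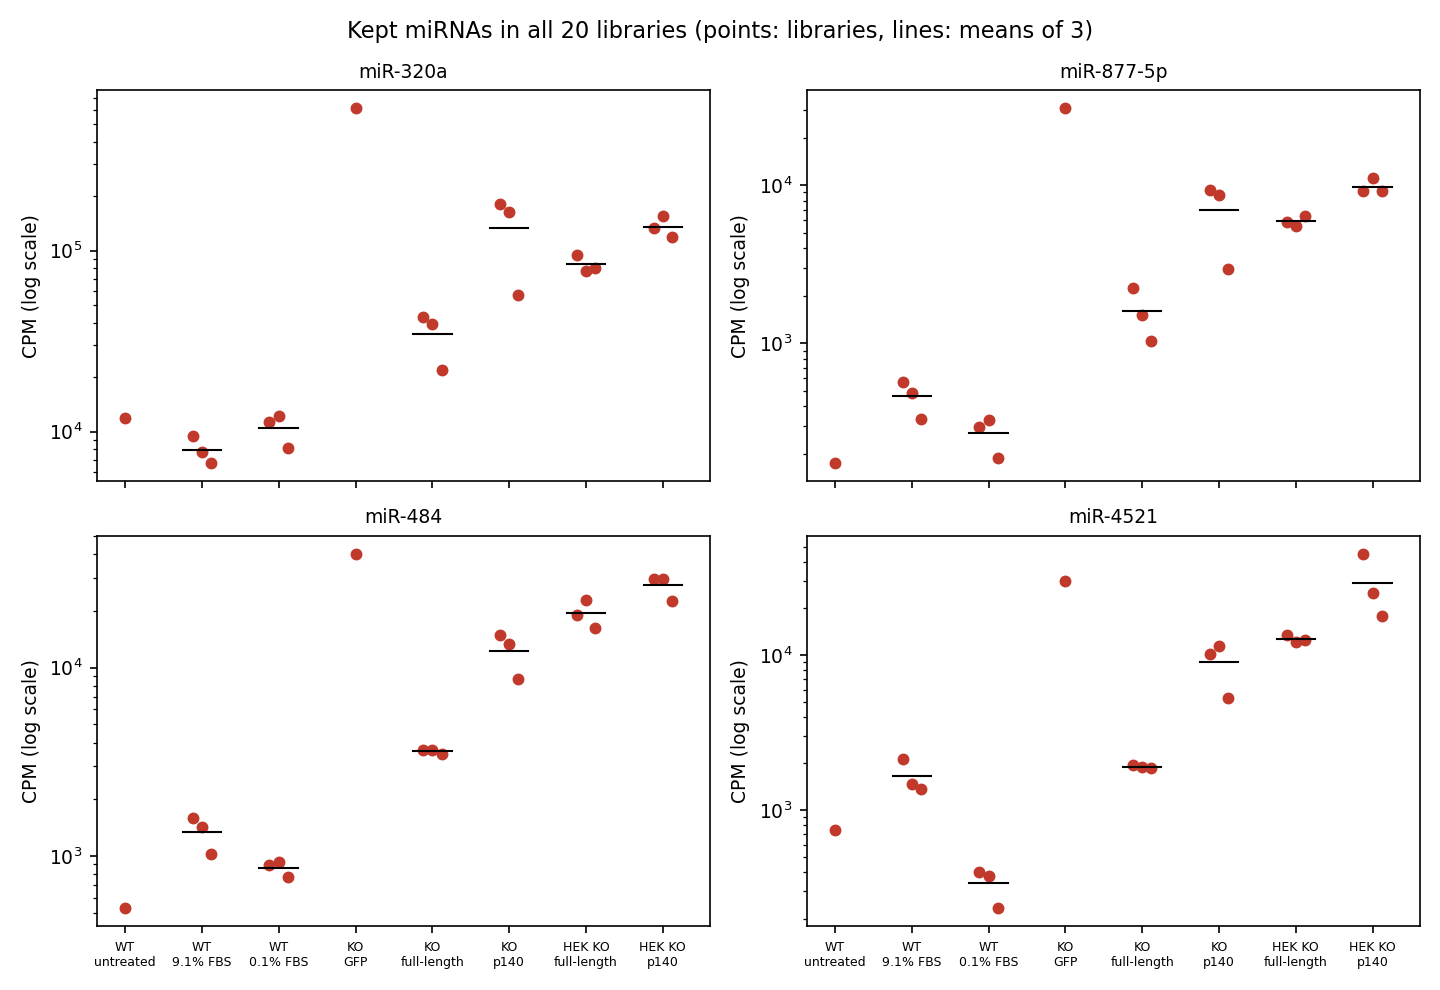
CPM (log scale) of 4 kept miRNAs in all 20 libraries by group, with points for libraries and lines for means of 3. miR-320a, miR-877-5p and miR-484 are highest in the knockout with GFP, and miR-4521 is higher only in 1 HEK293E library with p140.

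In the pooled reads of hairpins outside the kept set the minor arm took a larger share in the knockout. Over 119 hairpins outside the kept set with both arms listed, the minor arm took 18021 of 705548 reads in wild type, or 2.55% (2.52 to 2.59), and 179 of 4594 in the knockout, or 3.90% (3.36 to 4.50). The arm called minor was not always the less read: miR-3614-5p had 53 reads beside 48 in wild type and 37 beside 13 in the knockout. In wild type this also held for miR-335-5p (314 beside 159), miR-1307-5p (1521 beside 1399) and miR-28-3p (542 beside 501), while in most hairpins the minor arm had fewer. The pooled share is thus not strictly that of the less read arm. miR-3614 alone gave 37 of those 179 minor-arm reads. Over the 115 hairpins whose major arm is among the 181, a choice made after the data were seen that leaves miR-3614 out, the minor arm took 2.54% in wild type (2.50 to 2.58) and 3.13% in the knockout (2.64 to 3.67). Neither pair of intervals overlaps. Both pools lean on miR-21, whose major arm alone had 324564 reads in wild type and 2026 in the knockout. No pool without miR-21 was made, so a shift over the other hairpins is not shown. For miR-21 the minor arm was 0.727% (0.698 to 0.757) and 1.27% (0.829 to 1.85), without overlap. For miR-222 it was 1.67% (1.57 to 1.78) and 1.89% (0.818 to 3.68), which overlap.

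The size of the loss depends on what is held level. Scaled to the 23 arms of the mirtron and terminal hairpin lists, which took 1.27% of wild-type reads and 69.7% of the knockout's, the same 181 miRNAs (93.3% of those compared) were over 16-fold lower, with a median of 313-fold. On that scale miR-320a stands near level by construction, and 5 of the 13 kept miRNAs were over 2-fold higher in place of 13. The separation of the 13 from the 181 did not depend on the scale, since scaling moves every ratio alike.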

How the data were processed

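Small RNA was sequenced in 20 libraries, of which the HCT116 DROSHA knockout with GFP and the untreated wild type are compared. Per the labels' protocols, TRIzol RNA was treated with DNase, mixed with spike-in RNAs, size-selected on a gel, ligated to randomized adaptors and sequenced on a MiSeq. The authors deposited raw read counts for each mature miRNA of each hairpin, with no normalization. Per the submitters' processing notes, cutadapt, STAR, bedtools and hg38 were used, with versions, the miRNA release, the multi-mapping rule and any use of the random bases not given in the sources used here.

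A miRNA listed under several hairpins (167 of 2588) was counted once, by its copy with the most reads. Counts were divided by the library total (CPM) and compared where either library had at least 100 reads. Shares have Clopper-Pearson intervals and ratios exact conditional binomial intervals, at 95%, and 0 reads were bounded at 3. PCR copies were not told apart by molecular identifiers, so intervals cover counting error only. The ratio step was tested on simulated data. No test was made, with 1 library per group, and the labels do not say whether other groups' replicates are separate cultures.

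Hairpins were placed on GENCODE 29, whose build (GRCh38) is that of hg38, and mature arms matched to RefSeq by coordinates (2452 of 2813 rows); those without a sequence are named only. miR-365a-3p and miR-365b-3p share 1 sequence and the same reads, and count as 2 of the 194.

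Named miRNAs were those over 2-fold higher, the 12 highest in each library, the 12 lowest ratios, the 6 highest other ratios, the 2 most read of each list, and kept-list members with at least 10 knockout reads. Others named are members of a count or set described beside them, chosen after their values were seen. The groups compared, the lists (the kept list among them) and the limits were chosen with earlier results of these data known. Alternatives were TMM (edgeR 4.0.16) and DESeq2 1.42.0 size factors (R 4.3.3), scaling to the DROSHA-independent list, other minimums and fold limits, summed copies, and the 9.1% FBS libraries as wild type. Python 3.11.15, pandas 2.3.3 and scipy 1.17.1 were used.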

Additional observations from a re-analysis of the deposited data

How the results depend on the processing

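With 1 library on each side, 38288 knockout reads set the limit: a miRNA under 78.4 CPM there cannot be told from 0, and no value has a replicate check. No paired analysis was possible because each group has 1 library and no test was made. All 13 kept miRNAs stayed over 2-fold higher with TMM, DESeq2 size factors, summed copies and the 9.1% FBS comparator.

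The number over 2-fold higher was 5 on the scale of the DROSHA-independent list and of miR-320a, and 1 on that of the list without miR-320a. At minimums of 50, 20, 500 and 1 reads it was 22, 45 (13.4% of 337), 6 and 396. The number over 2-fold lower was 93 at a minimum of 500 and 5 at a limit of 16-fold, and the number lost on the list's scale 93 at a minimum of 500. The median loss of 313-fold became 292-fold scaled to miR-320a, 634-fold scaled to the list without it, 292, 281, 378 and 264-fold at minimums of 50, 20, 500 and 1, 579-fold against 9.1% FBS (497 to 619 leaving out each replicate, 557 without replicate 2) and 331-fold without miRNAs at 0 reads. The median log2 ratio of -2.46 became -2.0 with TMM, -1.99 with DESeq2, -8.25 scaled to the list, -8.15 to miR-320a and -9.26 to the list without it. It was -2.34, -2.04, -2.76 and 2.90 at minimums of 50, 20, 500 and 1, -2.30 with copies summed and -2.88 against 9.1% FBS (-2.89 to -2.85 leaving out each replicate, -2.87 without replicate 2). At a minimum of 1 a single read counts, and it is 26.1 CPM in the knockout; the cause of the change of sign was not tested. The list's share was 64.4% (knockout) and 1.06% (wild type) with copies summed, 8.58% and 0.0769% without miR-320a, and 0.994% for the mean of 9.1% FBS (0.90 to 1.08 leaving out each replicate, 1.0 without replicate 2).

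Single log2 ratios turned negative only by the shift that scaling adds to all. On the list's scale these were miR-1260b (-0.024), miR-320a (-0.10), miR-320b (-0.38), miR-320c (-0.077), miR-4521 (-0.45), miR-4454 (-1.38), miR-664a-3p (-1.24) and miR-664a-5p (-0.037). Scaled to miR-320a they were miR-320b (-0.28), miR-4521 (-0.35), miR-4454 (-1.28) and miR-664a-3p (-1.14). Scaled to the list without miR-320a they were miR-1224-5p (-0.55), miR-1237-3p (-1.0), miR-1260b (-1.04), miR-320a (-1.12), miR-320b (-1.40), miR-320c (-1.09), miR-320d (-0.88), miR-3615 (-0.60), miR-4286 (-0.78), miR-4454 (-2.40), miR-4521 (-1.47), miR-484 (-0.54), miR-664a-3p (-2.26) and miR-664a-5p (-1.05). List-scale limits of 4 and 64, the 83-miRNA set and the set by 9.1% FBS level were chosen after the data were seen.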
